A study of Mus musculus with 2 samples.

Results

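Lipid uptake and storage was examined through 9 genes, Lpl, Cd36, Angptl4, Gpihbp1, Plin2, Scd1, Fabp3, Fabp4 and Fabp5, of 31053 genes counted in mouse kidney cells. The genes were matched by symbol, and their unique molecular identifiers (UMIs, the molecules counted after capture) were summed over the cells of each marker-defined class. They were chosen from their counts in these same libraries, so their levels and ratios describe the libraries and no test is attached to them. The study set kidney cells of 5-week-old Kif3aΔTub mice, labelled KO and described as disease, against kidney cells of 5-week-old WT mice, labelled control. Each genotype gave 1 library, made from dissociated kidney with the 10x Chromium 3' v3 kit, so no value has a replicate and the interval beside a value covers counting error only. Kif3a encodes a subunit of the kinesin-2 motor, which builds cilia. The labels name neither the deleted part of Kif3a, nor the driver of the deletion, nor the number of mice behind a library.

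Circulating triglyceride reaches cells through a short chain of proteins. Lipoprotein lipase, the product of Lpl, splits triglyceride of lipoprotein particles into fatty acids, Gpihbp1 carries the enzyme to the luminal face of capillaries, and Angptl4 inhibits it. Cd36 takes up long-chain fatty acids, the binding proteins Fabp3, Fabp4 and Fabp5 carry them inside cells, Scd1 puts a double bond into saturated ones, and Plin2 coats the droplets in which triglyceride is stored. Proximal tubule and thick ascending limb cells of the kidney draw much of their energy from oxidising fatty acids, and Plin2 and Angptl4 are known targets of the fatty acid-sensing PPAR receptors.

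After filtering, 7066 Kif3aΔTub and 4317 WT cells remained, with a median of 7799 and 7771 UMIs a cell. The median share of mitochondrial UMIs was 7.54% in Kif3aΔTub and 26.8% in WT cells, and 706 Kif3aΔTub barcodes (8.88%) and 2564 WT barcodes (37.0%) lay at or over the limit of 50%. Of the kept cells, 17 barcodes occurred in both libraries. Kif3a itself was counted at 12.3 CPM (UMIs per 1000000 UMIs) in Kif3aΔTub and 9.82 CPM in WT cells of 5 tubule classes (512 and 391 UMIs); 3' counts check a deletion only where it removes the counted end, so these values do not bear on the genotype. Clustering without the 9 genes and without 10 lists of related lipid genes gave 30 clusters. Of these, 25 were named from their markers, while the other 5 had leading genes of more than 1 type or low depth. A name such as thick ascending limb stands for thick ascending limb-like cells. The unnamed clusters held 1824 Kif3aΔTub cells (25.8%) and 39 WT cells (0.903%). Among them, clusters 1, 6 and 7 (554, 841 and 301 Kif3aΔTub cells) had Aqp2 and Fxyd4 among their leading genes. Those cells are not part of the principal class. Several classes drew on different clusters in each library: proximal tubule cells of early type came mostly from cluster 0 in Kif3aΔTub (898 of 1014 cells) and from clusters 2 and 14 in WT (1801 of 1816), and thick ascending limb cells from cluster 3 in Kif3aΔTub (555 of 576) and cluster 27 in WT (326 of 338). Of the distal convoluted or connecting tubule cells, 399 of 400 in Kif3aΔTub lay in cluster 19, led by Klk1, S100g and Calb1. In WT, 173 of 221 lay in cluster 29, led by Slc12a3, Egf and Pvalb, which held 1 Kif3aΔTub cell. Principal cells came mostly from cluster 5 in Kif3aΔTub (884 of 977) and from cluster 18 in WT (127 of 137). Ratios of all these classes therefore compare mostly different clusters. A cluster filled by 1 library may reflect that library rather than a cell type.

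The 9 genes lie on 7 mouse chromosomes of build GRCm38, in GENCODE vM21. Lpl spans chr8:68880491-68907448 on the plus strand, Cd36 chr5:17781690-17888801 on the minus strand, Angptl4 chr17:33773750-33781830 on the minus strand and Gpihbp1 chr15:75596628-75599481 on the plus strand. Plin2 spans chr4:86648386-86670060 and Scd1 chr19:44394455-44407879, both on the minus strand. Fabp5 at chr3:10012548-10016607 on the plus strand and Fabp4 at chr3:10204088-10208576 on the minus strand are neighbours on chromosome 3, and Fabp3 lies apart at chr4:130308595-130315463 on the plus strand. Fabp3 overlaps Gm10570 and Zcchc17 on the opposite strand, both counted separately, and no member has a counted near-identical copy over the last 300 bases of its transcript.

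Promoter sequence was at hand in RefSeq (GRCm38.p6) for 3 of the 9 genes, and it is shown because these members give 3 patterns along the tubule: Cd36 followed the late proximal tubule, Plin2 was counted in most classes, and Fabp3 ran opposite to Plin2. Each line gives the 250 bases before the start that RefSeq lists for the gene, 5′ to 3′ on the gene's strand, with motifs in capitals. That start differs from the end of the GENCODE span given above: the Cd36 window lies wholly inside the Cd36 span, at a start internal to it, the Fabp3 window runs into the Fabp3 span, and the Plin2 window meets the end of its span. They are chr5:17835897-17836146 (minus), chr4:86670060-86670309 (minus) and chr4:130308488-130308737 (plus).
Cd36: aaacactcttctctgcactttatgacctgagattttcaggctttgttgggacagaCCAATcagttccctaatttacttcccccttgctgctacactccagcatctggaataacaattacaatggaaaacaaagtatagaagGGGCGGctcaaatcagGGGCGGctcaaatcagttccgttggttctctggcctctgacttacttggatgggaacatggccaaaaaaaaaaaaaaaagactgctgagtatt
Plin2: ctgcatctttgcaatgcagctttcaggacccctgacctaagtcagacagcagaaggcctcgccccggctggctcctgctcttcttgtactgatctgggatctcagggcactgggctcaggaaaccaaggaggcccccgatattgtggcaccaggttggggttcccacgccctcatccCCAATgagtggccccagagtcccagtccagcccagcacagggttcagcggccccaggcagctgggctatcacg
Fabp3: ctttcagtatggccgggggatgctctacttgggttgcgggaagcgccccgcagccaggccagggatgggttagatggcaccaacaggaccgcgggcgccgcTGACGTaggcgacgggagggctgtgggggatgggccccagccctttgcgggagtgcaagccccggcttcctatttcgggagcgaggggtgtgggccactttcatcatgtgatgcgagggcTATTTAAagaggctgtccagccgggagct

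The motifs searched on both strands were TATAAA and its variant TATTTAA, the CCAAT box, the GC box GGGCGG, the E-box CACGTG, the cyclic AMP element core TGACGT and the PPAR repeat, 2 copies of AGGTCA with 1 base between them. Counted back from the RefSeq start, Cd36 held CCAAT at 195 to 191 bases and GGGCGG at 109 to 104 and at 93 to 88, Plin2 held CCAAT at 73 to 69, and Fabp3 held TGACGT at 149 to 144 and TATTTAA at 29 to 23. Among 32851 promoters of the same length, CCAAT occurred in 33.9%, GGGCGG in 32.7%, TGACGT in 6.47%, TATTTAA in 4.18%, TATAAA in 12.4%, CACGTG in 6.02% and the PPAR repeat in 0.0335%. None of the 3 windows held the PPAR repeat, TATAAA or CACGTG, which says only that these letters are not in this stretch.

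Levels are the gene's CPM, its UMIs per 1000000 UMIs of the class. Ratios are Kif3aΔTub over WT with 0.5 UMIs added to each sum. A gene is called higher or lower when it has at least 20 UMIs over both libraries and its ratio, taken relative to the median gene of the class, is past 2-fold. That median gene stood between 0.01 and 0.50 above 0 on the log2 scale, lowest in principal cells and highest in distal convoluted or connecting tubule cells, so a ratio near 2-fold can be called on 1 scale and not on the other. In early proximal tubule cells 5 of 8 measured members were higher and 2 lower, where 9.56% of all genes with 20 UMIs were higher and 4.61% lower (14.2% in all). In thick ascending limb 3 of 7 were higher and 4 lower, where 13.4% and 9.78% of all genes were (23.2% in all). In distal convoluted or connecting tubule 2 of 5 were higher and 3 lower, where 11.2% and 8.69% of all genes were (19.9% in all). In principal cells 1 of 4 was higher and 1 lower, where 9.17% and 6.28% of all genes were (15.4% in all), and in intercalated cells 1 of 5 was higher and 3 lower, where 6.8% and 5.32% of all genes were (12.1% in all). In endothelium 2 of 8 were higher and 1 lower, where 4.66% and 3.73% of all genes were (8.38% in all). The members were chosen with such values known, so nothing is read from their shares against these.

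**Figure D1:**
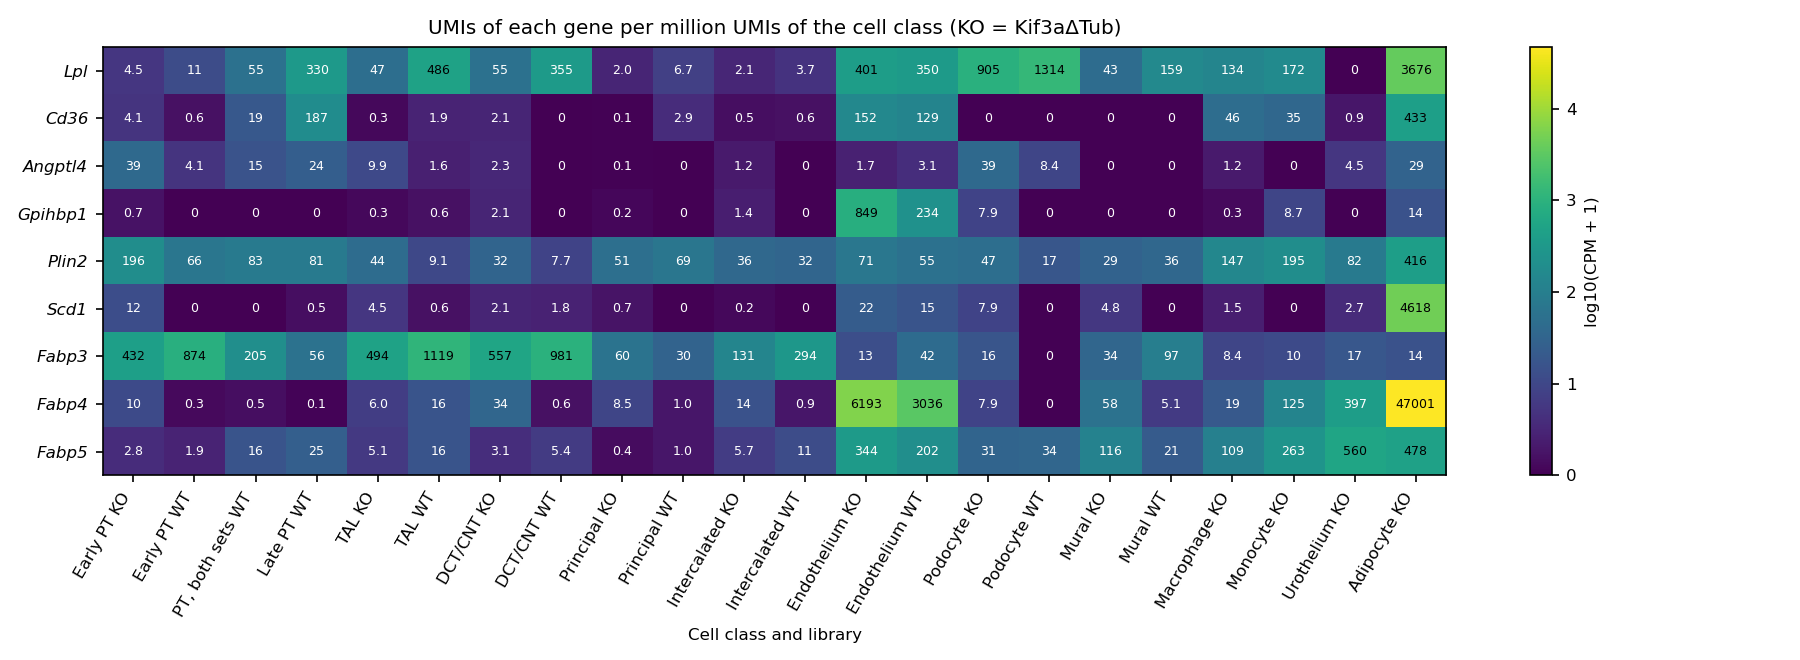
Level of each of the 9 genes in CPM of the class, printed in each cell and coloured as log10(CPM + 1), for Kif3aΔTub (KO) and WT cells of the classes drawn, where the library has at least 16 cells. Cycling cells, neutrophils, T cells, B cells and unnamed cells are not drawn. PT is proximal tubule, TAL thick ascending limb and DCT/CNT distal convoluted or connecting tubule. Lpl reaches 330 in late proximal tubule and 486 in thick ascending limb of WT, and Gpihbp1 reaches 849 in Kif3aΔTub and 234 in WT endothelium.

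Lpl varied widely along the tubule, and its level was lower in Kif3aΔTub cells, past 2-fold relative to the median gene, in proximal tubule, thick ascending limb, distal convoluted or connecting tubule and principal cells. In intercalated cells it was past 2-fold only relative to the median gene (-1.06), on few UMIs, and with libraries clustered separately the value was 0.079, so no direction is read there. In thick ascending limb cells, which reabsorb salt, it stood at 47.2 CPM in Kif3aΔTub (95% interval 42.3 to 52.5, 344 UMIs) and 486 CPM in WT (462 to 511, 1549 UMIs), a log2 ratio of -3.36 (-3.54 to -3.19). Distal convoluted or connecting tubule cells held 55.3 CPM in Kif3aΔTub and 355 CPM in WT, a log2 ratio of -2.68 (-2.90 to -2.47). Counting intervals of the libraries were far apart in both classes. The libraries filled mostly different clusters in both, and the part of this in the ratios was not tested. The share of thick ascending limb cells with an Lpl UMI was 20.7% in Kif3aΔTub and 84.0% in WT, and with every cell thinned to 1000 UMIs it was 3.32% in Kif3aΔTub and 37.9% in WT. Principal cells, taken as background for these shares, held an Lpl UMI in 2.05% of Kif3aΔTub and 5.11% of WT cells, at a median depth of 10799 UMIs in Kif3aΔTub and 6764 UMIs in WT. Their own log2 ratio of -1.79 (-2.93 to -0.28) rested on 30 Kif3aΔTub UMIs, 11 of them in 1 cell, and 7 WT UMIs. The thick ascending limb cells had 8948.5 UMIs in Kif3aΔTub and 8847 UMIs in WT.

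The Lpl difference was also seen inside the clusters that both libraries filled, with few cells on 1 side. In cluster 27, Lpl stood at 279 CPM in 21 Kif3aΔTub cells (210 to 363) and 500 CPM in 326 WT cells (475 to 526). In cluster 3 it was 40.8 CPM in 555 Kif3aΔTub cells (36.2 to 45.7) and 82.7 CPM in 12 WT cells (37.8 to 157). Both within-cluster differences ran the same way as that of the class, 47.2 CPM in Kif3aΔTub and 486 CPM in WT, and were much smaller. In cluster 3 the intervals overlapped. The median mitochondrial share of these cells was 7.32% in Kif3aΔTub and 34.2% in WT, and its part in the ratio was not tested.

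In proximal tubule cells, which reclaim most of the filtrate, the level of Lpl depended on the segment. WT cells of late type (cluster 15, 676 cells) held 330 CPM (317 to 342), WT cells with early and late markers (cluster 28, 473 cells) 54.9 CPM, and WT cells of early type 11.0 CPM. Cells of the late cluster were 15.7% of WT cells and 0 of 7066 in Kif3aΔTub, which allows a share of up to 0.0425% in that cluster. The late label was given to whole clusters, so Kif3aΔTub cells of late type inside other clusters would not be counted. Over the whole proximal tubule Lpl was at 4.45 CPM in Kif3aΔTub and 98.3 CPM in WT, a log2 ratio of -4.45 (-4.91 to -4.05), and 4 of 8 measured members were higher and 3 lower, where 9.74% of all genes were higher and 6.11% lower (15.8% in all). Over early cells alone it was at 4.45 CPM (47 UMIs) in Kif3aΔTub and 11.0 CPM (207 UMIs) in WT, a log2 ratio of -1.30 (-1.80 to -0.85). Summed over 10 late markers the early cells stood at 350 CPM in Kif3aΔTub and 301 CPM in WT, and over 7 early markers at 2889 CPM in Kif3aΔTub and 4899 CPM in WT.

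Lpl was low in the named collecting duct classes. Principal cells held 2.04 CPM in Kif3aΔTub and 6.68 CPM in WT, and intercalated cells 2.14 CPM in Kif3aΔTub and 3.74 CPM in WT. The interval of the intercalated log2 ratio of -0.79 ran from -2.23 to 0.56 and included 0. Podocytes, the filtering cells of the glomerulus, held 905 CPM in 30 Kif3aΔTub cells (747 to 1086) and 1314 CPM in 16 WT cells (1116 to 1537), and an Lpl UMI was present in 90.0% of the Kif3aΔTub and 87.5% of the WT cells. Mural cells held 43.4 CPM in 37 Kif3aΔTub cells and 159 CPM in 48 WT cells. In WT the order ran from podocytes over thick ascending limb, distal convoluted or connecting tubule, endothelium and late proximal tubule to mural cells, and the neighbouring levels from distal convoluted or connecting tubule to late proximal tubule (355, 350 and 330 CPM) were not separated by their intervals.

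Macrophages and monocytes carried Lpl in the Kif3aΔTub library, which held nearly all of these cells. Macrophages (670 Kif3aΔTub and 4 WT cells) held 134 CPM in Kif3aΔTub and monocytes (230 Kif3aΔTub and 5 WT cells) 172 CPM, and the WT cells are too few for a comparison. A cluster of 37 Kif3aΔTub cells with all 7 adipocyte markers, and with 0 of 4317 WT cells, held 3676 CPM of Lpl. Those 37 cells made up 0.524% of the kept Kif3aΔTub cells and 54.4% of their Lpl UMIs. Over all kept cells Lpl therefore stood at 66.9 CPM in Kif3aΔTub and 133 CPM in WT while the class ratios ranged far wider.

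**Figure D2:**
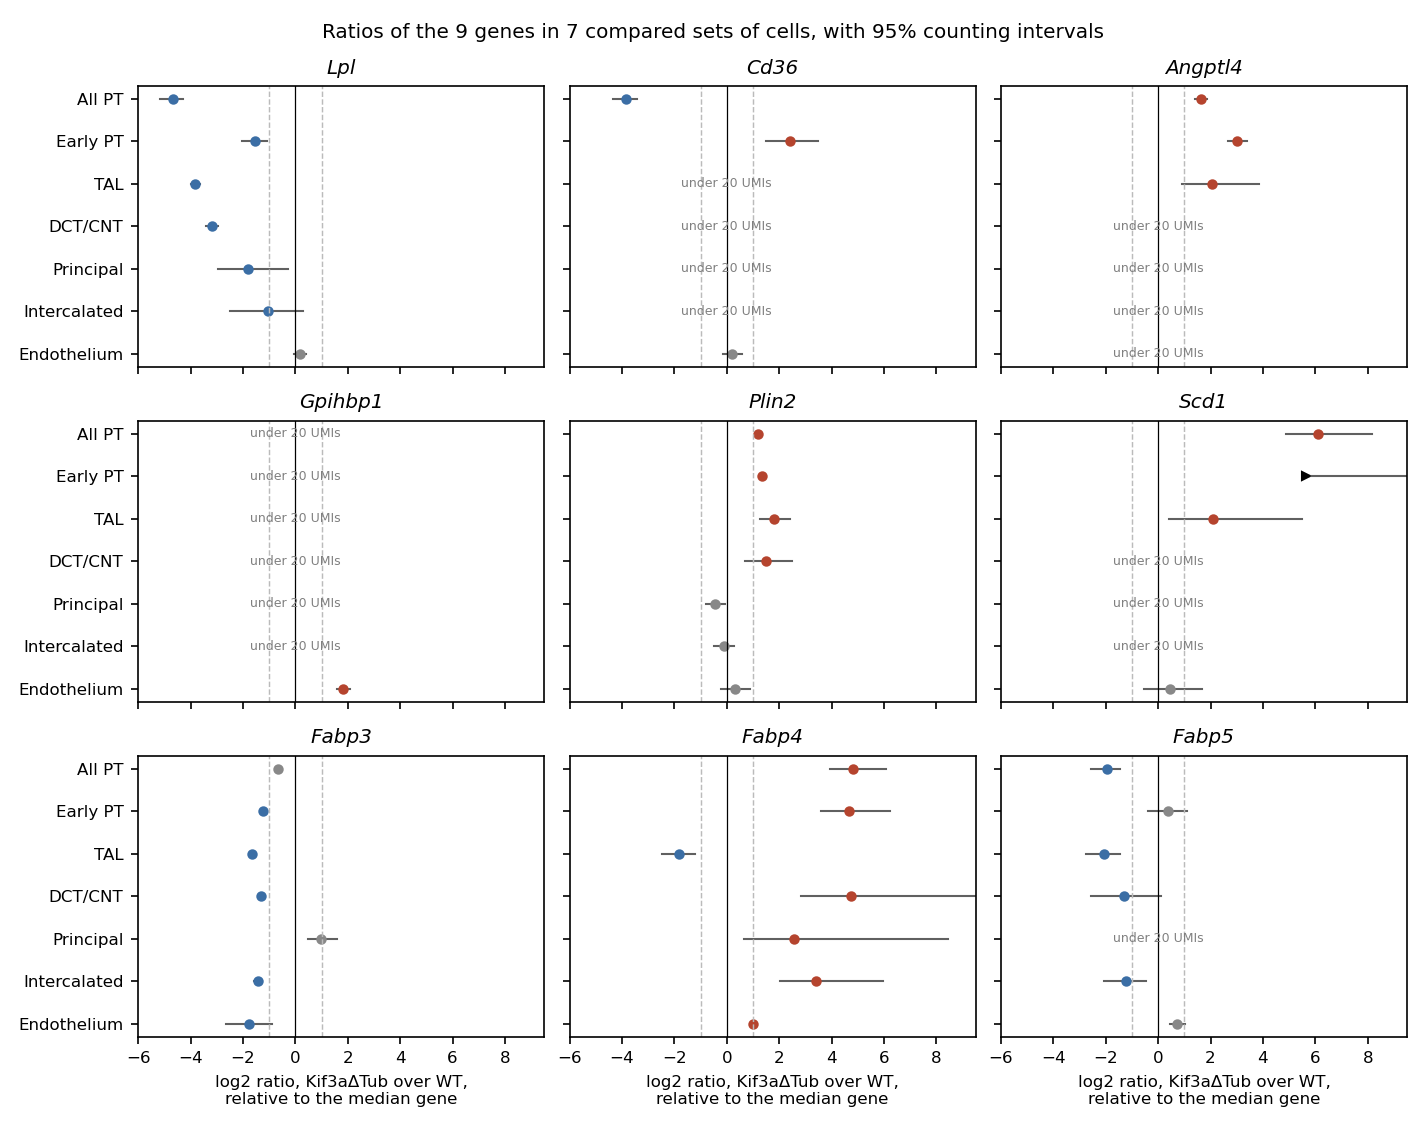
Log2 ratio of each gene, Kif3aΔTub over WT, relative to the median gene of the class, with 95% counting intervals. Red points are at least 2-fold higher, blue at least 2-fold lower, grey within 2-fold (dashed lines), and the black arrow marks the lower bound for Scd1, which had 0 UMIs in WT early proximal tubule cells. Lpl lies left of 0 in the tubule and near 0 in endothelium, and Cd36 changes side between all and early proximal tubule cells.

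Gpihbp1 was counted almost entirely in endothelial cells, which held 95.6% of its UMIs in Kif3aΔTub and 98.7% in WT. It stood there at 849 CPM in Kif3aΔTub (806 to 893, 1491 UMIs) and 234 CPM in WT (199 to 275, 152 UMIs), a log2 ratio of 1.85 (1.62 to 2.11). A Gpihbp1 UMI was present in 59.9% of Kif3aΔTub and 34.2% of WT endothelial cells, against 0.149% of Kif3aΔTub macrophages (median depths of 2703.5 UMIs in Kif3aΔTub and 2339 UMIs in WT endothelium and 4263.5 UMIs in the macrophages), and in 43.0% of Kif3aΔTub and 23.2% of WT endothelial cells after thinning to 1000 UMIs. Both endothelial clusters showed the difference. Cluster 16, led by Emcn, Plat, Kdr and Ehd3, held 765 CPM in 232 Kif3aΔTub cells and 312 CPM in 92 WT cells, and cluster 20, led by Tm4sf1, Fabp4 and Mgp, held 908 CPM in 242 Kif3aΔTub cells and 178 CPM in 63 WT cells. Over the 9 endothelial markers the class summed to 9811 CPM in Kif3aΔTub and 8971 CPM in WT. Outside endothelium Gpihbp1 stayed under 20 UMIs in each compared class.

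Lpl itself was within 2-fold in endothelium, at 401 CPM in Kif3aΔTub and 350 CPM in WT, a log2 ratio of 0.20 (-0.02 to 0.42). The clusters differed from each other more than the libraries did. Cluster 16 held 762 CPM of Lpl in Kif3aΔTub and 786 CPM in WT, and cluster 20 held 147 CPM in Kif3aΔTub (125 to 173) and 34.5 CPM in WT (18.4 to 59.1, 13 UMIs).

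Angptl4, the secreted inhibitor of the lipase, was a proximal tubule transcript in both libraries, with 65.5% of its Kif3aΔTub and 95.9% of its WT UMIs there. Early cells held 39.0 CPM in Kif3aΔTub (35.4 to 43.0, 412 UMIs) and 4.10 CPM in WT (3.24 to 5.13, 77 UMIs), a log2 ratio of 3.24 (2.90 to 3.62). Of these cells, 28.1% in Kif3aΔTub and 4.13% in WT had an Angptl4 UMI, against 0.102% of Kif3aΔTub principal cells and 0 of 137 WT principal cells, which allows a share of up to 2.19%. Their median depths are given above, and those of the early cells were 7929.5 UMIs in Kif3aΔTub and 7434.5 UMIs in WT. Thinned, the early cells stood at 4.19% in Kif3aΔTub and 0.554% in WT. WT late cells lay between, at 24.3 CPM, so over the whole proximal tubule the log2 ratio was 1.87 (1.66 to 2.08). Within cluster 2 the values were 29.1 CPM in 88 Kif3aΔTub cells and 5.31 CPM in 926 WT cells, and within cluster 14 they were 22.4 CPM in 28 Kif3aΔTub cells (6 UMIs) and 3.52 CPM in 875 WT cells. Kif3aΔTub cells were higher in each of these clusters and in the class. Thick ascending limb cells held 9.88 CPM in Kif3aΔTub (72 UMIs) and 1.57 CPM in WT (5 UMIs), a log2 ratio of 2.53 (1.37 to 4.32).

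Cd36, the fatty acid transporter, followed the late proximal tubule in WT, where cluster 15 held 187 CPM (177 to 197) and 87.8% of all WT Cd36 UMIs. WT cells with early and late markers held 18.6 CPM and WT early cells 0.639 CPM (12 UMIs). Kif3aΔTub proximal tubule cells held 4.07 CPM (43 UMIs), so the log2 ratio was -3.62 (-4.11 to -3.20) over the whole proximal tubule and 2.63 (1.72 to 3.73) over early cells. The direction thus turned with the cells compared. All 43 Kif3aΔTub UMIs lay in cluster 0, in 1.97% of early cells and with up to 9 in 1 cell, while 0.606% of WT early cells had a Cd36 UMI. Defining the classes from single-cell marker scores, or clustering at resolution 2, put the early-cell value relative to the median gene at -3.14 and -0.45, so the higher call in early cells did not hold. With libraries clustered separately the whole proximal tubule value was 0.95, so the lower call there did not hold under every setting either.

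**Figure D3:**
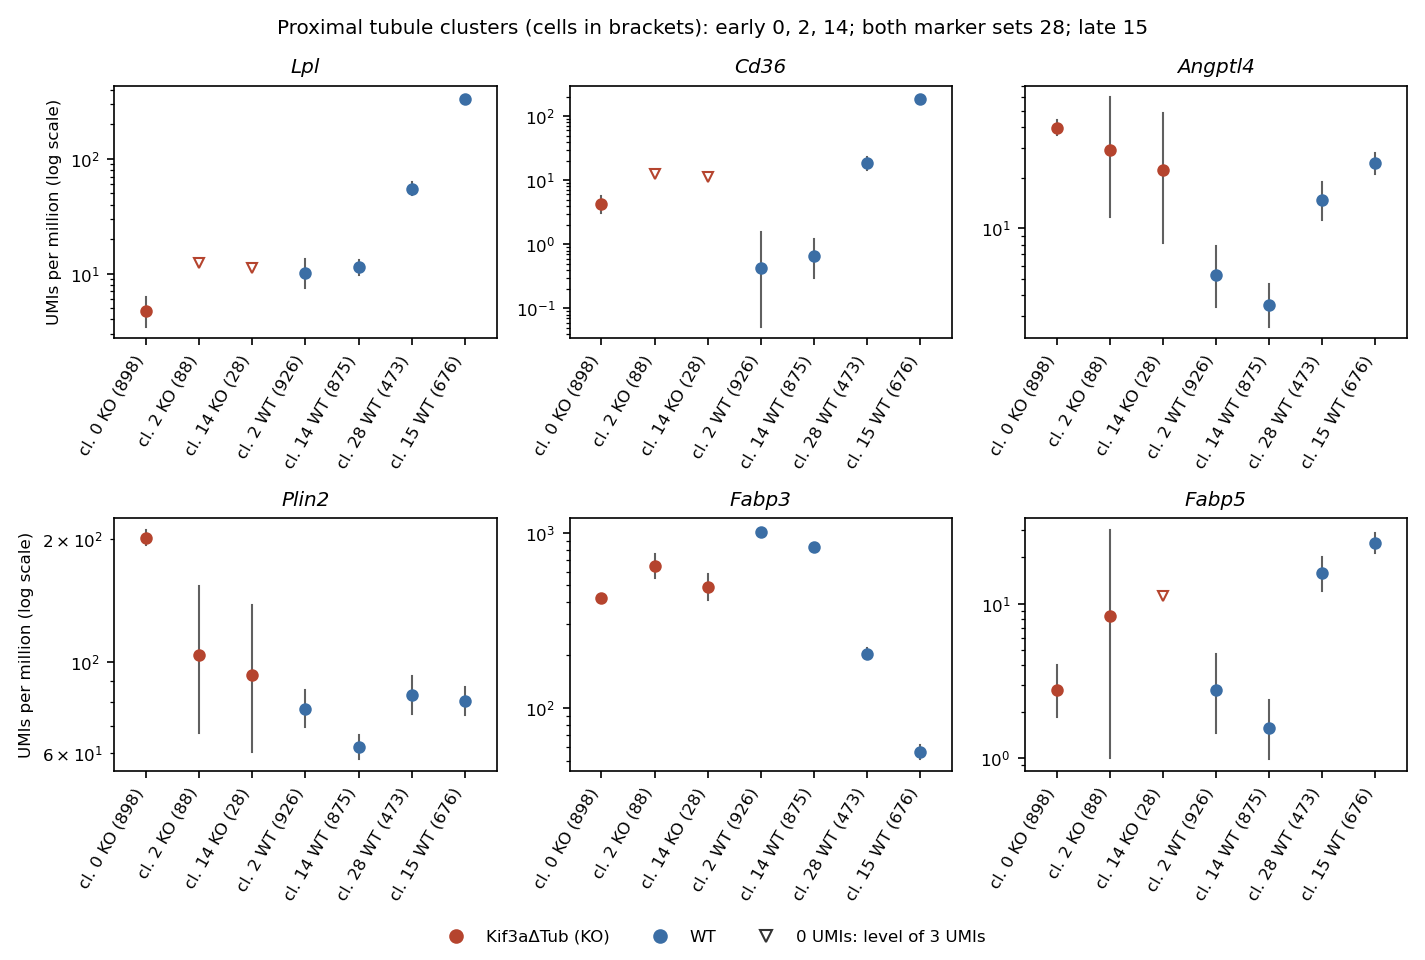
Levels of 6 genes in proximal tubule clusters (CPM, log axis) with 95% Poisson intervals, Kif3aΔTub cells in red and WT cells in blue, with cell numbers in brackets. The 15 WT cells of cluster 0 and the 4 Kif3aΔTub cells of cluster 28 are not drawn. An open triangle marks 0 UMIs and stands at the level of 3 UMIs. Lpl, Cd36 and Fabp5 peak and Fabp3 is lowest in the late WT cluster 15, which holds 0 Kif3aΔTub cells, and among the groups drawn Angptl4 and Plin2 are highest in the Kif3aΔTub cells of cluster 0.

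Endothelial cells also held Cd36, at 152 CPM in Kif3aΔTub (134 to 171) and 129 CPM in WT (103 to 160), within 2-fold. In cluster 16 the values were 53.7 CPM in Kif3aΔTub and 110 CPM in WT, and in cluster 20 they were 221 CPM in Kif3aΔTub and 143 CPM in WT, so the clusters ran opposite ways. Kif3aΔTub macrophages held 45.8 CPM, monocytes 35.5 CPM and the 37 adipocytes 433 CPM, or 38.6% of all Cd36 UMIs of that library. Thick ascending limb, distal convoluted or connecting tubule, principal and intercalated cells stayed under 20 UMIs of Cd36 over both libraries.

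Plin2 was the member found in nearly every class, and it was higher in Kif3aΔTub cells of proximal tubule, thick ascending limb and distal convoluted or connecting tubule. Early proximal tubule cells held 196 CPM in Kif3aΔTub (188 to 205) and 66.1 CPM in WT (62.5 to 69.9), a log2 ratio of 1.57 (1.47 to 1.67). A Plin2 UMI was present in 62.7% of those Kif3aΔTub and 41.7% of those WT cells, and in 17.1% of Kif3aΔTub and 6.83% of WT cells after thinning. T cells, taken as background, held one in 5.26% of 38 Kif3aΔTub cells and 0 of 14 WT cells, which allows a share of up to 21.4%, at median depths of 2291 UMIs in Kif3aΔTub and 2606 UMIs in WT, below those of the early cells. Thick ascending limb cells held 44.2 CPM in Kif3aΔTub and 9.10 CPM in WT, a log2 ratio of 2.26 (1.73 to 2.88), and distal convoluted or connecting tubule cells 31.6 CPM in Kif3aΔTub and 7.75 CPM in WT, a log2 ratio of 1.98 (1.21 to 2.97). In the distal class the value relative to the median gene was 1.48, and with classes from marker scores of single cells it was 0.90, short of 2-fold.

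The Plin2 difference was smaller inside shared clusters. In cluster 2 it was 104 CPM in 88 Kif3aΔTub cells (67.2 to 153) and 77.0 CPM in 926 WT cells, and in cluster 14 it was 93.1 CPM in 28 Kif3aΔTub cells (60.3 to 137) and 62.1 CPM in 875 WT cells. The intervals overlapped in both. Cluster 27 of the thick ascending limb held 15.2 CPM in Kif3aΔTub (3 UMIs) and 9.09 CPM in WT. Cluster 0, the bulk of the Kif3aΔTub early cells, stood at 201 CPM in Kif3aΔTub and 107 CPM in 15 WT cells (13 UMIs). Macrophage markers in early cells summed to 38.2 CPM in Kif3aΔTub and 0.320 CPM in WT, against 21364 CPM in Kif3aΔTub macrophages, whose own Plin2 level was 147 CPM, and their part in the difference was not tested. Principal cells (50.6 CPM in Kif3aΔTub and 68.7 in WT), intercalated cells (36.3 CPM in Kif3aΔTub and 32.4 CPM in WT) and endothelial cells (70.6 CPM in Kif3aΔTub and 55.5 CPM in WT) were within 2-fold.

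Scd1, the fatty acid desaturase, was an adipocyte transcript in the Kif3aΔTub library, where 37 cells held 4618 CPM and 89.1% of its UMIs. In early proximal tubule cells it had 125 UMIs in Kif3aΔTub, or 11.8 CPM (9.86 to 14.1), and 0 UMIs in WT, so it was at least 74.1-fold higher against a floor of 3 UMIs in the WT class. The UMIs lay in 5.92% of those Kif3aΔTub cells, with up to 21 in 1 cell. Adipocyte markers summed to 16.4 CPM in the same Kif3aΔTub cells and 7.78 CPM in WT, with 5 of 7 detected in Kif3aΔTub and 2 of 7 in WT. Scd1 UMIs per adipocyte marker UMI came to 0.723 in Kif3aΔTub early cells, 0.635 in Kif3aΔTub thick ascending limb, 0.323 in Kif3aΔTub distal convoluted or connecting tubule, 0.113 in Kif3aΔTub principal cells, 0.0303 in Kif3aΔTub intercalated cells and 0.0813 in the adipocytes themselves, and the part of adipocyte RNA in these levels was not tested. Thick ascending limb cells held 4.53 CPM of Scd1 in Kif3aΔTub (33 UMIs) and 0.627 CPM in WT (2 UMIs), a log2 ratio of 2.55 (0.88 to 5.96), and endothelial cells held 22.2 CPM in Kif3aΔTub and 15.4 CPM in WT.

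Fabp3, the heart-type binding protein, ran opposite to Plin2 in the tubule. Early proximal tubule cells held 432 CPM in Kif3aΔTub (420 to 445) and 874 CPM in WT (860 to 887), a log2 ratio of -1.01 (-1.06 to -0.97). Thick ascending limb cells held 494 CPM in Kif3aΔTub and 1119 CPM in WT, a log2 ratio of -1.18 (-1.25 to -1.11), and distal convoluted or connecting tubule cells 557 CPM in Kif3aΔTub and 981 CPM in WT, a log2 ratio of -0.82 that was past 2-fold only relative to the median gene (-1.31). WT late cells held 56.4 CPM, the lowest of the proximal tubule, so over the whole proximal tubule Kif3aΔTub stood at 432 CPM and WT at 576 CPM, within 2-fold. Within cluster 27 of the thick ascending limb Fabp3 was 866 CPM in 21 Kif3aΔTub cells (741 to 1006) and 1153 CPM in 326 WT cells, while cluster 3 ran the other way, at 484 CPM in 555 Kif3aΔTub cells and 156 CPM in 12 WT cells (17 UMIs). The early proximal tubule clusters kept the direction: cluster 2 held 648 CPM in Kif3aΔTub and 1009 CPM in WT, and cluster 14 held 492 CPM in Kif3aΔTub and 829 CPM in WT.

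Cells of the named collecting duct classes split by type for Fabp3. Intercalated cells held 131 CPM in Kif3aΔTub and 294 CPM in WT, a log2 ratio of -1.17 (-1.32 to -1.01). Their cluster 9, with Slc26a4, showed 90.8 CPM in 136 Kif3aΔTub cells and 421 CPM in 163 WT cells, while cluster 22, with Slc4a1, showed 149 CPM in 312 Kif3aΔTub cells and 141 CPM in 124 WT cells. Cluster 9 supplied 30.4% of Kif3aΔTub and 56.8% of WT intercalated cells. Principal cells ran the other way, at 59.9 CPM in Kif3aΔTub and 29.6 CPM in WT (31 UMIs), a log2 ratio of 1.00 (0.50 to 1.58) that was just short of 2-fold. The libraries filled mostly different principal cell clusters, and the part of this in the ratio was not tested. Endothelial cells held little Fabp3, at 12.5 CPM in Kif3aΔTub (22 UMIs) and 41.6 CPM in WT (27 UMIs).

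Fabp4, the adipocyte and endothelial binding protein, was high in both endothelial clusters and very high in the adipocytes. Endothelial cells held 6193 CPM in Kif3aΔTub and 3036 CPM in WT, a log2 ratio of 1.03 (0.96 to 1.10) that lay at the 2-fold mark. Cluster 20 held 8243 CPM in Kif3aΔTub and 4289 CPM in WT, and cluster 16 held 3281 CPM in Kif3aΔTub and 1307 CPM in WT. Adipocyte markers in endothelium summed to 176 CPM in Kif3aΔTub and 208 CPM in WT, with Adipoq, Adrb3 and Acvr1c at 0 in both. Of the 7 markers, 4 were detected in Kif3aΔTub and 1, Sncg, in WT. Retn, Car3 and Cfd were at 0 in WT only, and the part of adipocyte RNA in the Fabp4 levels was not tested. Adipocytes held 47001 CPM of Fabp4, which was 72.7% of the Fabp4 UMIs of the Kif3aΔTub library. Endothelium supplied 21.5% of Kif3aΔTub and 96.6% of WT Fabp4 UMIs.

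Tubule cells of the Kif3aΔTub library carried Fabp4 at a low level in every class, from 6.04 CPM in thick ascending limb and 8.50 CPM in principal cells to 10.2 CPM in early proximal tubule, 14.0 CPM in intercalated and 33.7 CPM in distal convoluted or connecting tubule cells. The WT values were 15.7, 0.954, 0.320, 0.936 and 0.596 CPM in the same order. Single cells set the extremes: 134 of 161 UMIs of the Kif3aΔTub distal class and 49 of 50 UMIs of the WT thick ascending limb lay in 1 cell each. Without the top cell of each library the levels were 5.65 CPM in Kif3aΔTub and 0 CPM in WT in the distal class. In thick ascending limb they were 5.62 CPM in Kif3aΔTub and 0.314 CPM in WT, which turned the direction there. Summed adipocyte markers were also higher in each Kif3aΔTub tubule class, at 6.49 to 16.5 CPM in Kif3aΔTub and 0 to 7.78 CPM in WT. Adipoq, Retn, Adrb3, Cfd and Acvr1c were at 0 in each WT tubule class. Among the WT classes listed above, early proximal tubule had the highest sum, 7.78 CPM, and the lowest Fabp4, 0.320 CPM. That WT sum came from 2 of the 7 markers, and the adipocyte cluster held 0 WT cells. It therefore cannot show whether Fabp4 follows adipocyte RNA. Fabp4 UMIs per adipocyte marker UMI were 0.624 in Kif3aΔTub early proximal tubule, 0.846 in thick ascending limb, 1.29 in principal cells, 1.79 in intercalated cells, 5.19 in the distal class with its top cell and 0.827 in adipocytes. Without the Fabp4 UMIs of that top cell, the Kif3aΔTub distal class held 27 Fabp4 UMIs, against 31 adipocyte marker UMIs over all its cells. The part of free RNA in these levels was not tested, so they are read neither as expression by these cells nor as free RNA.

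Fabp5, the epidermal-type binding protein, was spread over several classes. In Kif3aΔTub its UMIs lay in urothelium (23.7%), endothelium (23.3%), adipocytes (14.4%), macrophages (14.0%) and monocytes (12.8%), and in WT they lay in proximal tubule (52.2%) and endothelium (23.4%). Endothelial cells held 344 CPM in Kif3aΔTub (318 to 373) and 202 CPM in WT (169 to 240), a log2 ratio of 0.77 (0.50 to 1.05), within 2-fold. In cluster 20 the levels were 309 CPM in Kif3aΔTub and 128 CPM in WT, and in cluster 16 they were 395 CPM in Kif3aΔTub and 305 CPM in WT. Kif3aΔTub adipocytes held 478 CPM, monocytes 263 CPM, macrophages 109 CPM and urothelial cells (83 Kif3aΔTub and 5 WT cells) 560 CPM with up to 134 UMIs in 1 cell. In the tubule Fabp5 was low and lower still in Kif3aΔTub, at 5.08 CPM in Kif3aΔTub and 15.7 CPM in WT thick ascending limb, a log2 ratio of -1.62 (-2.28 to -0.99), and at 5.70 CPM in Kif3aΔTub and 11.2 CPM in WT in intercalated cells, a log2 ratio of -0.97 (-1.79 to -0.19). The proximal tubule log2 ratio of -1.73 (-2.34 to -1.20) rested on WT late cells (24.7 CPM): early cells held 2.84 CPM in Kif3aΔTub and 1.86 CPM in WT, with an interval of -0.15 to 1.35. In distal convoluted or connecting tubule cells 15 Kif3aΔTub and 9 WT UMIs gave an interval of -2.06 to 0.60.

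**Figure D4:**
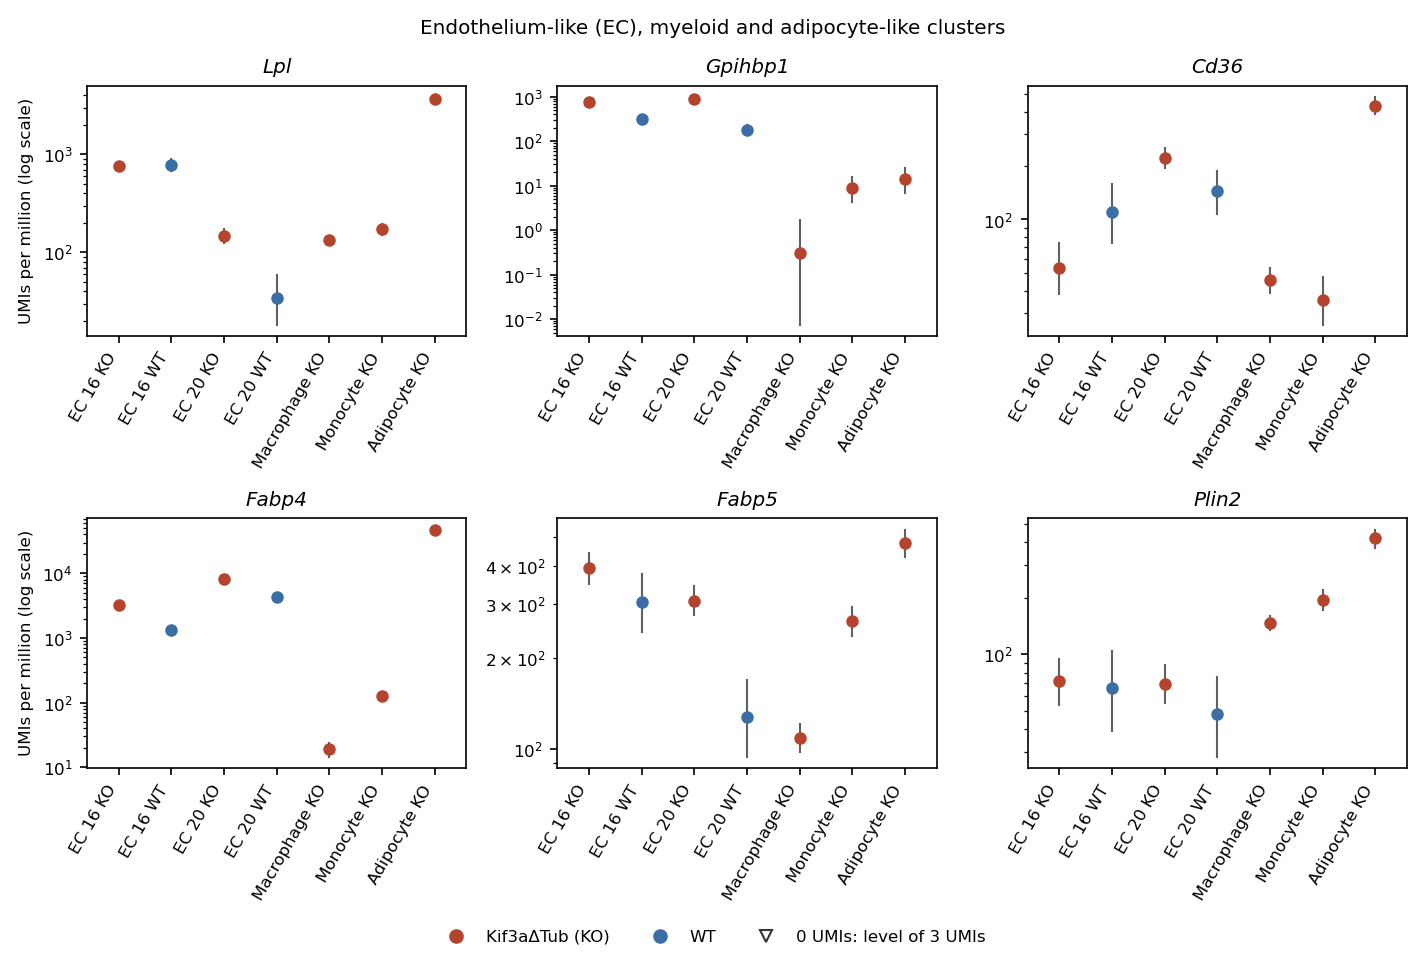
Levels of 6 genes (CPM, log axis) with 95% Poisson intervals in endothelial clusters 16 and 20 of Kif3aΔTub (red) and WT (blue), and in Kif3aΔTub macrophages, monocytes and adipocytes, whose WT counterparts hold 0 to 5 cells. Gpihbp1 and Fabp4 are higher in Kif3aΔTub in both endothelial clusters, and the adipocytes hold the highest Lpl, Cd36, Fabp4, Fabp5 and Plin2 shown.

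Genes of the same pathways were read from 10 lists chosen with earlier results of these data known, and counted by the same 2-fold rule. In early proximal tubule cells, PPAR receptors and targets had 7 of 14 measured genes higher and 0 lower, with a median log2 ratio relative to the median gene of 0.72 against 0.02 over all genes tested; 9.56% of all genes were higher and 4.61% lower. Cyp4a14, a fatty acid hydroxylase, stood at 251 CPM in Kif3aΔTub and 1.39 CPM in WT early cells. Pdk4, which restrains glucose oxidation, stood at 6.44 CPM in Kif3aΔTub and 0.107 CPM (2 UMIs) in WT. Over the whole proximal tubule, which includes the WT late cells, 6 of 14 PPAR genes were higher and 0 lower, with a median of 0.17. There 9.74% of all genes were higher and 6.11% lower. Cyp4a14 then stood at 251 CPM in Kif3aΔTub and 12.6 CPM in WT, and Pdk4 at 6.53 CPM in Kif3aΔTub and 1.11 CPM in WT. Fatty acid entry and activation had 4 of 11 higher and 1 lower, among them Dbi, the acyl-CoA binding protein, at 4543.5 CPM in Kif3aΔTub and 1816 CPM in WT, and Acsl5, an acyl-CoA synthetase, at 13.4 CPM in Kif3aΔTub and 4.69 CPM in WT. Over the whole proximal tubule this list had 2 of 12 higher and 1 lower, and Dbi was within 2-fold.

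Genes that build or clear stored fat were counted in early cells by the same rule. Triglyceride synthesis had 2 of 13 higher and 0 lower, led by the acyltransferase Mogat1 at 23.5 CPM in Kif3aΔTub and 0.586 CPM in WT, while Dgat2, which makes triglyceride, was at 39.3 CPM in Kif3aΔTub and 66.2 CPM in WT and within 2-fold. Over the whole proximal tubule, which includes the WT late cells, triglyceride synthesis had 0 of 13 higher and 1 lower. Mogat1 was thus not called higher there, where 9.74% of all genes were higher and 6.11% lower. Lipid droplet coat and turnover had 1 of 14 higher and 0 lower, and desaturation and lipogenesis 2 of 15 higher and 0 lower, with Scd2 at 10.4 CPM in Kif3aΔTub and 0.479 CPM in WT. Lipoprotein lipase handling had 1 of 9 higher and 1 lower. Among lipoprotein and scavenger receptors 2 of 5 were higher and 1 lower. The lower one was Lrp2, the endocytic receptor megalin, at 577 CPM in Kif3aΔTub and 1023 CPM in WT, past 2-fold only relative to the median gene. Over the whole proximal tubule Lrp2 was within 2-fold. Hypoxia targets had 1 of 12 higher and 0 lower, and other fatty acid binding proteins 0 of 3.

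The same lists ran differently in the thick ascending limb, where 13.4% of all genes were higher and 9.78% lower. PPAR receptors and targets had 1 of 11 higher and 4 lower, with a median of -0.92. Ppargc1a, a coactivator of mitochondrial genes, stood at 114 CPM in Kif3aΔTub and 281 CPM in WT, the carnitine palmitoyltransferase Cpt1a at 82.5 CPM in Kif3aΔTub and 156 CPM in WT, and the dehydrogenase Acadm at 210 CPM in Kif3aΔTub and 381 CPM in WT. Fatty acid entry and activation had 2 of 11 higher and 5 lower, the higher being the caveolins Cav1 (33.7 CPM in Kif3aΔTub and 0.627 CPM, 2 UMIs, in WT) and Cav2 (58.4 CPM in Kif3aΔTub and 2.51 CPM in WT). Lipid droplet coat and turnover had 1 of 12 higher and 4 lower, among them the monoglyceride lipase Mgll at 11.5 CPM in Kif3aΔTub and 45.2 CPM in WT. Lipoprotein lipase handling had 0 of 10 higher and 2 lower, the lipase Lipg at 8.78 CPM in Kif3aΔTub and 31.4 CPM in WT and the protease Pcsk6 at 2.47 CPM in Kif3aΔTub and 32.9 CPM in WT. Whether the lists differ between early proximal tubule and thick ascending limb was not tested, and the libraries filled mostly different clusters of both.

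Distal convoluted or connecting tubule cells resembled the thick ascending limb in count, with PPAR receptors and targets at 0 of 10 higher and 5 lower and lipid droplet coat and turnover at 1 of 12 higher and 5 lower, where 11.2% of all genes were higher and 8.69% lower. The acyl-CoA synthetase Acsl1 stood at 33.9 CPM in Kif3aΔTub and 112 CPM in WT, and Mgll at 76.0 CPM in Kif3aΔTub and 185 CPM in WT. Because the libraries filled mostly different clusters of this class, these counts also compare clusters, and that part was not tested. In endothelium, where 4.66% of all genes were higher and 3.73% lower, single genes lay past 2-fold in both directions. The higher ones included the lipoprotein Apoe at 495 CPM in Kif3aΔTub and 168 CPM in WT, the HDL receptor Scarb1 at 123 CPM in Kif3aΔTub and 43.2 CPM in WT, and Scd2 at 110 CPM in Kif3aΔTub and 35.5 CPM in WT. The lower ones included the retinoid receptor Rxra at 11.96 CPM in Kif3aΔTub and 44.7 CPM in WT, the phosphatidate phosphatase Lpin2 at 26.2 CPM in Kif3aΔTub and 86.3 CPM in WT, and the growth factor Vegfa at 33.6 CPM in Kif3aΔTub and 95.6 CPM in WT.

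Genes listed for lipid-associated macrophages had 5 of 9 measured genes higher and 0 lower in early proximal tubule, 4 of 9 higher and 0 lower in thick ascending limb, 3 of 9 higher and 1 lower in distal convoluted or connecting tubule, 3 of 10 higher and 1 lower in principal cells, 3 of 9 higher and 0 lower in intercalated cells and 4 of 8 higher and 0 lower in endothelium. Of all genes, 9.56%, 13.4%, 11.2%, 9.17%, 6.8% and 4.66% were higher in the same order of classes. The shares lower were 4.61%, 9.78%, 8.69%, 6.28%, 5.32% and 3.73%. The list was chosen with earlier results known, so nothing is read from its counts against these shares. Macrophage markers, summed over 8 genes, came to between 27.1 and 40.4 CPM in these Kif3aΔTub classes and between 0.320 and 6.17 CPM in WT. C1qa, C1qb, C1qc and Ms4a7 were at 0 in these WT classes. The part of macrophage RNA in these counts was not tested. Spp1 reached 15464 CPM in Kif3aΔTub and 1552 CPM in WT early proximal tubule cells, and Lgals3 stood at 1057 CPM in Kif3aΔTub and 97.5 CPM in WT thick ascending limb cells.

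**Figure D5:**
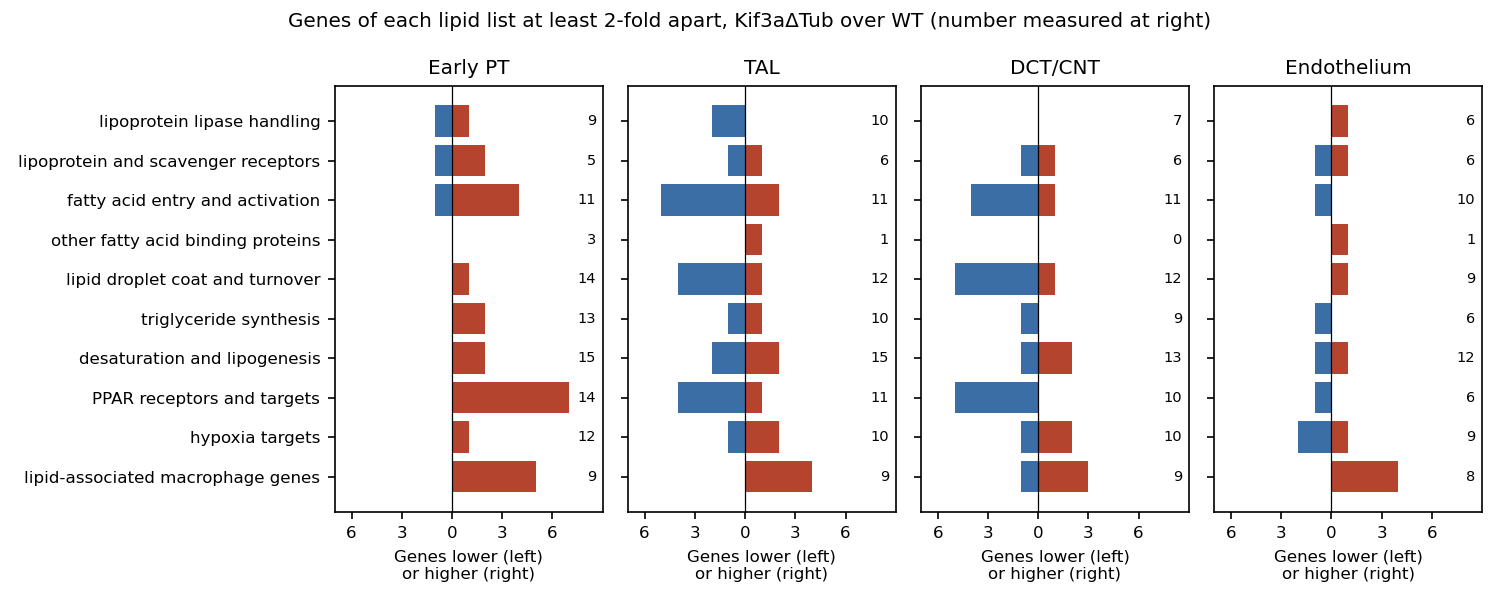
Number of genes of each lipid list at least 2-fold higher (red, right) or lower (blue, left) in Kif3aΔTub over WT, relative to the median gene, in 4 sets of cells, with the number of measured genes at the right edge. PPAR receptors and targets have 7 of 14 genes higher in early proximal tubule (Early PT) and 5 of 10 lower in distal convoluted or connecting tubule (DCT/CNT) cells.

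Genes with the most similar levels were ranked over 18 class-by-library points of at least 50 cells by the correlation of log2(CPM + 1), among 6881 genes. Gpihbp1 ran most closely with Cdh5, the endothelial cadherin (r = 0.99), and Fabp3 with Ndufb4, a subunit of respiratory complex I (r = 0.96). Cd36 ran with Tfpi (r = 0.93), Fabp4 with Serpina3g (r = 0.93), Fabp5 with Gda (r = 0.88), Plin2 with Eif5a (r = 0.84) and Lpl with Frmd4a (r = 0.77). The points share libraries and differ in depth, and these values describe likeness only. Angptl4 and Scd1 reached at most 39.0 and 22.2 CPM over these points and were not ranked.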

How the data were processed

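The deposited UMI counts of 2 libraries, 1 of Kif3aΔTub and 1 of WT kidney, were used. The authors made these counts per gene and cell barcode with Cell Ranger 3.1.0, per the file headers, or 3.0.2, per the submitters' processing notes, which also name Seurat 3.1.1 and mm10. How strand was handled is not given in the sources used here.

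Barcodes with at least 500 UMIs, 200 genes and under 50% mitochondrial UMIs were kept (7236 of 7950 in Kif3aΔTub and 4371 of 6938 in WT). Doublets called by Scrublet (170 or 2.35% in Kif3aΔTub and 54 or 1.24% in WT) were removed, leaving 79060495 UMIs in Kif3aΔTub and 42468386 in WT; the caller may miss doublets. Cells were clustered with scanpy 1.11.5 (Leiden, resolution 1, 30 components, 15 neighbours) without the 9 genes and the lipid lists. A cluster was named from at least 3 markers at 50 CPM or more with 1 among its 10 leading genes, and left unnamed where markers of another type led it as well or its depth was low; the rule for names was set once the clusters had been seen, so a difference from the study may come from the names. Classes with 100 cells in each library were compared.

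The members and lists were chosen with earlier results of these data known. Counts were summed per class, and ratios carry exact conditional Poisson intervals, CPM exact Poisson and shares Clopper-Pearson intervals (95%), all for counting error only; the limit beside 0 is 3 counts of the total. Genes with 100 UMIs gave the median gene. With 1 library a genotype there is no replicate check and no test; whether a library holds 1 mouse or several is not given in the sources used here, and cells are not replicates. All 9 members were named, with up to 3 genes of a list per class, those with the largest ratios among genes with 50 UMIs whose interval left out 0 (some are not reported here), and for each member the genes with the highest correlation among those reaching 50 CPM. Scripts were tested on simulated data. Promoters came from RefSeq. Alternatives included other mitochondrial limits, resolutions, class definitions, priors and scalings (edgeR 4.0.16), and 2 were added after the data were seen.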

Additional observations from a re-analysis of the deposited data

Results flagged for a closer look

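Fabp4 differed in direction between sets of cells. Its log2 ratio of Kif3aΔTub over WT was 4.89 in early proximal tubule, 5.24 in distal convoluted or connecting tubule, 2.58 in principal, 3.69 in intercalated and 1.03 in endothelial cells, against -1.38 in thick ascending limb cells. The WT thick ascending limb sum had 49 of 50 UMIs in 1 cell, and the Kif3aΔTub distal sum 134 of 161. With 1 library a genotype this difference between classes was not tested.

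Cd36 also turned with the cells compared. Its log2 ratio was -3.62 over the whole proximal tubule, where the late cluster held 676 WT cells and 0 Kif3aΔTub cells. Over early cells alone it was 2.63, on 43 UMIs in Kif3aΔTub and 12 in WT. This difference was not tested either.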

How the results depend on the processing

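Under 17 other settings, 22 of 35 member and class pairs past 2-fold stayed past 2-fold in the same direction wherever they had a value, and 525 of 553 alternative values did so. Among those 22 were Lpl in thick ascending limb (log2 ratios of -3.88 to -2.95), Gpihbp1 in endothelium (1.47 to 2.05), Angptl4 (2.07 to 3.24) and Plin2 (1.19 to 1.57) in early proximal tubule. Ranges given here are mostly relative to the median gene, but the other scalings enter with no median gene subtracted. Fabp4 in endothelium ranged from 0.80 to 1.23 and Fabp3 in early proximal tubule from -1.44 to -0.85, across the 2-fold mark. Reversals were Cd36 in early cells at resolution 2 (-0.45) and with marker scores of single cells (-3.14), Cd36 over the whole proximal tubule (0.95) and Lpl in intercalated cells (0.079) with libraries clustered separately, and Fabp4 in thick ascending limb without its top cell (3.14, a setting chosen after seeing the data); the last rested on that cell, and for the others the cause was not tested.

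The number of members past 2-fold became 2 in intercalated cells with a mitochondrial limit of 25% and with libraries clustered separately. With marker scores of single cells it was 1 in distal convoluted or connecting tubule, 4 in principal and 1 in endothelial cells. With no minimum of UMIs it was 8 in distal convoluted or connecting tubule and 6 in principal cells. That setting also calls members on few UMIs, such as Cd36 in the distal class on 10 Kif3aΔTub and 0 WT UMIs. With cells thinned to 1000 UMIs, where fewer members reach 20 UMIs, it was 4 in early proximal tubule (of 4 measured), 3 in thick ascending limb (of 3), 2 in distal convoluted or connecting tubule (of 2), 0 in principal (of 2), 1 in intercalated (of 1) and 1 in endothelial cells (of 6). With no median gene subtracted, chosen after seeing the data, it was 3 in distal convoluted or connecting tubule and 2 in intercalated cells. The share of all genes past 2-fold was not counted under these other settings, so these counts show only how the calls of the members moved.

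A limit of 25% left 50 WT thick ascending limb and 60 WT distal cells, and resolution 0.5 left 1 Kif3aΔTub distal and 38 WT principal cells, so those comparisons were not run. No paired analysis was possible because each genotype has 1 library. Sums under 20 UMIs, such as Gpihbp1 outside endothelium, limit what the tubule classes can show.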

Other observations

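Plin2 and Angptl4 were also counted together in an unnamed cluster, whose leading genes belong to more than 1 type. Its 101 Kif3aΔTub cells (and 2 WT cells), led by Tagln, Vim, Cp, Akap12, Vcam1 and C3, held 251 CPM of Plin2 (224 to 282), with a UMI in 52.5% of cells, and 34.8 CPM of Angptl4 (41 UMIs). An unnamed cluster of 841 Kif3aΔTub cells and 1 WT cell, led by Lcn2 and Sprr2f, held 71.5 CPM of Plin2 with a UMI in 57.7% of cells, and 0.767 CPM of Angptl4. Neither cluster has WT cells enough for a comparison.

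Single cells set several high sums. Among 27 unnamed Kif3aΔTub cells led by Mgp, Col3a1 and Col1a1, 1 cell held 1154 of 1156 Fabp4 UMIs, and top cells held 124 of 129 Scd1 and 73 of 81 Lpl UMIs. In an unnamed cluster of 554 Kif3aΔTub cells with a median of 999 UMIs, led by Aqp2, Fabp4 stood at 267 CPM, Scd1 at 71.0 CPM and Lpl at 59.2 CPM, with a UMI in 4.15%, 1.26% and 2.17% of cells. In urothelial cells 318 of 436 Fabp4 UMIs lay in 1 Kif3aΔTub cell.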
